A study of Mus musculus with 3 samples.

Results

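The cells described here are border-associated macrophages (BAMs) with high MHC class II expression, found among sorted brain myeloid cells of mice. They were chosen by their own counts of 7 genes. A barcode with over 200 and under 8000 genes and at most 10% mitochondrial UMIs was a member when Mrc1, Pf4, Ms4a7 and F13a1 summed to at least 5 UMIs and H2-Aa, H2-Ab1 and H2-Eb1 summed to at least 10 UMIs. A UMI is a molecular barcode that counts 1 captured mRNA molecule. In all, 110 of 14070 kept barcodes met this rule, a share of 0.782% (95% Clopper-Pearson interval 0.643 to 0.942%). They were 110 of the 306 barcodes that met the BAM sum, and the other 196, with fewer class II UMIs, are called class II low BAMs. The members are set against 13312 microglia, defined as barcodes with P2ry12 and Tmem119 at 0.15% of UMIs or more and a BAM sum under 5 UMIs. Because the same counts chose the cells, the levels below describe them and were not tested.

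The study asked how the isoforms of human CD33, an inhibitory sialic acid-binding receptor of myeloid cells, act in microglia. There was 1 single-cell library per genotype, all from brains at 8 weeks of age. The hCD33m library came from female mice with a transgene for the short isoform, the hCD33M library from male mice with a transgene for the long isoform, and the Control library from male wild-type mice. Per the study's methods, each transgene lay in the Rosa26 locus behind a floxed stop and was switched on by Cx3cr1-Cre, a driver active in microglia, BAMs and monocytes. Sex and genotype cannot be told apart for hCD33m, and how many mice gave each of these libraries, or whether Control mice carried Cre, is not given for this experiment in the sources used here. All mice were perfused with inhibitors of transcription, and brains were kept cold with a translation inhibitor added. CD11b+ CD45low Cx3cr1+ cells were sorted, a gate set for microglia that can lose BAMs with higher CD45, so the shares are shares of sorted cells.

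BAMs are the macrophages of the brain's borders, the meninges, the choroid plexus and the spaces around blood vessels. They take up debris and soluble molecules through scavenger and lectin receptors and differ from microglia, the macrophages of the brain tissue itself. MHC class II molecules hold peptides from engulfed protein at the cell surface for CD4+ T cells. In mice, a class II high group of BAMs is known to be replaced in part from CCR2+ monocytes of the blood, while the class II low group with LYVE1 is long-lived.

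The class II alpha and beta chains selected on here are H2-Aa, H2-Ab1 and H2-Eb1. Their promoters are known to share an S, X and Y box module, in which the Y box is an inverted CCAAT motif bound by the factor NF-Y. The 3 windows below run from 110 to 21 bases before the RefSeq start site (GRCm38.p6) and are shown because H2-Aa and H2-Eb1, chosen by the rule, and H2-DMb1, which was not, went up and down together from cell to cell. H2-DMa, which was not chosen by the rule either, did so too and is taken up below the windows. Capitals mark ATTGG, the core of the Y box, or its reverse complement CCAAT.
H2-Aa: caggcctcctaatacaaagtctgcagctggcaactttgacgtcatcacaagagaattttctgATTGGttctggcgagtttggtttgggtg
H2-Eb1: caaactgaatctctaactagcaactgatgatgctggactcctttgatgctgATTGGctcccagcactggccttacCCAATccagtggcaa
H2-DMb1: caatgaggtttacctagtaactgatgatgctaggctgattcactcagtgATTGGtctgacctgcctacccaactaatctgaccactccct

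The H2-Aa window lies at chr17:34287844-34287933 on the minus strand, the H2-Eb1 window at chr17:34305757-34305846 on the plus strand, and the window of H2-DMb1, which encodes a chain of the peptide-loading molecule DM, at chr17:34153081-34153170 on the plus strand. Of 11 class II genes looked up, 8 had a promoter in the table used, with 9 start sites. TGATTGG stood 45 to 102 bases upstream of 7 of these 9 start sites, on the gene's own strand. The others were the 2 start sites of H2-DMa, 1 without ATTGG and 1 with it at position -198. H2-DMa varied with the class II share as H2-DMb1 did, at a Spearman correlation over members of 0.72 against 0.70. ATTGG, on either strand, was in 8 of the 9, against 37.4% of all 32851 promoters of the same 300 bases, and TGATTGG was in 7.82% of all promoters, either strand. Within the 90-base window the shares of all promoters were 18.0% for ATTGG and 4.42% for TGATTGG. A match is a description of the letters and was not tested as a binding site.

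Members made up a like share of each library. They were 40 of 5612 barcodes in hCD33m (0.713%, interval 0.510 to 0.969%), 39 of 5046 in hCD33M (0.773%, 0.550 to 1.06%) and 31 of 3412 in Control (0.909%, 0.618 to 1.29%), and these intervals overlap. Of the BAM barcodes, 31.5% of 127 in hCD33m, 39.8% of 98 in hCD33M and 38.3% of 81 in Control were class II high. All intervals and floors cover counting error only, and no test could be made between genotypes, each of which had a single library. The hCD33m members held 540729 UMIs, the hCD33M members 359095 and the Control members 365407. Libraries shared 7 to 10 barcode sequences pairwise, none of them a member's. A further 5 barcodes met both sums but failed the filter on cells.

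The class II sum ran over a wide range. Members held 10 to 761 class II UMIs, with medians of 170 for hCD33m, 135 for hCD33M and 205 for Control. The 3 genes were 1.36% of all UMIs of hCD33m members, 1.58% of those of hCD33M members and 1.59% of those of Control members, against 0.00194 to 0.00655% in microglia. Some barcodes stood near the limits, more so for the BAM sum. For class II, 7 BAM barcodes had 10 to 14 UMIs and 9 had 5 to 9. Of barcodes with a high class II sum, 15 had a BAM sum of 5 or 6 and 13 had one of 3 or 4. With a BAM sum of at least 10 UMIs the share of members fell from 0.782% to 0.547%. Just inside, the lowest member sums were 11, 11 and 10 class II UMIs in hCD33m, hCD33M and Control, and just outside the highest were 7, 9 and 6. The scatter of both sums per library shows both limits.

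**Figure D1:**
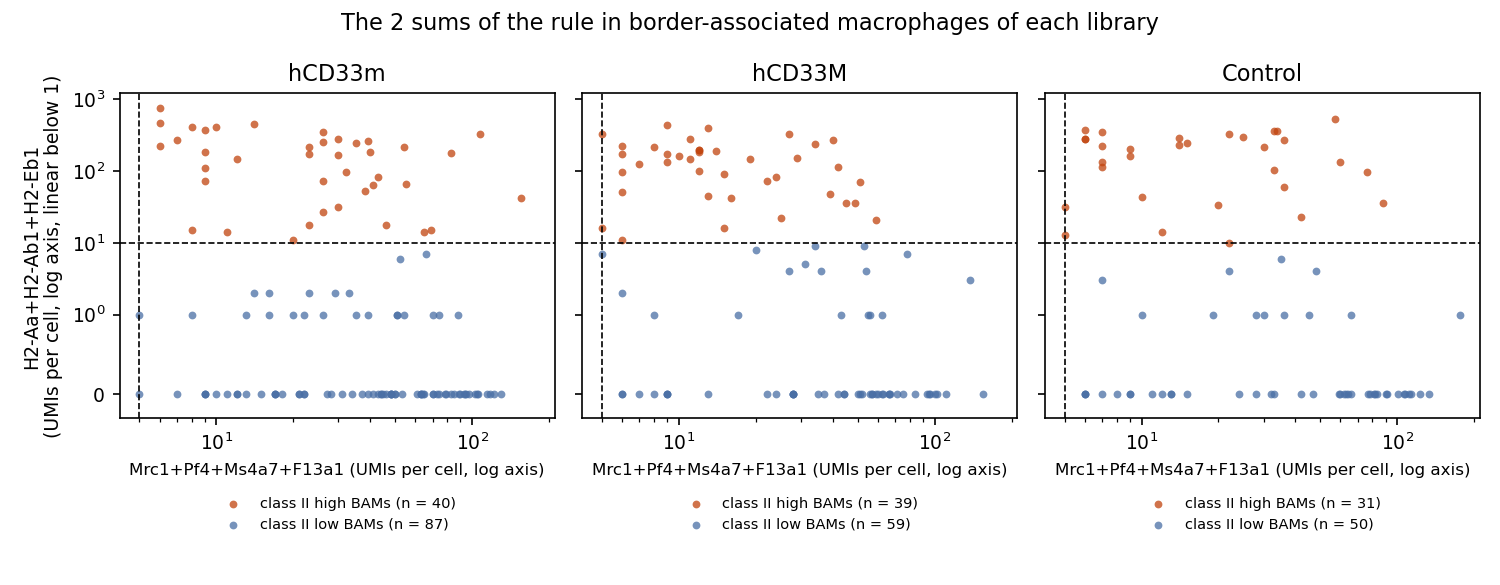
Each point is 1 BAM barcode, with the summed UMIs of Mrc1, Pf4, Ms4a7 and F13a1 on the x axis (log) and of H2-Aa, H2-Ab1 and H2-Eb1 on the y axis (log, linear below 1), 1 panel per library. Dashed lines mark 5 and 10 UMIs, the 40, 39 and 31 class II high cells lie above the horizontal line, and the class II low cells below it have a median of 0 class II UMIs.

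The genes that picked the members cannot check the label, and their spread is given as a description. All 4 BAM genes of the rule were seen in 46 members, 3 in 27, 2 in 29 and 1 in 8. Mrc1, the mannose receptor, was detected in 36 of 40 members in hCD33m, 33 of 39 in hCD33M and 27 of 31 Control ones. Pf4, a platelet factor chemokine that BAMs express, was detected in 30 of 40 in hCD33m, 29 of 39 in hCD33M and 23 of 31 Control ones. F13a1, a coagulation factor subunit that monocytes also express, was detected in fewer, 25 of 40, 23 of 39 and 19 of 31 members of the same libraries. Of the markers of other cell types, only 2 of 10 T and NK cell, 3 of 7 choroid plexus and 0 of 5 mast cell genes have a row in the tables used here, and those 5 genes had 0 UMIs in members. The 17 dendritic cell markers include Siglech, a microglial gene, and Bst2, an interferon-response gene. The 12 of them that no other list holds summed to 217 to 305 CPM in members, against 379.8 to 397 CPM in microglia. In class II low BAMs they summed to 244 to 306 CPM. Of these 12, Xcr1, which marks dendritic cells, and Ccr7 alone had no UMI in members of any library. Flt3, Clec9a and Ccr9 had UMIs in members and none in class II low BAMs. Of Flt3, Zbtb46, Xcr1, Clec9a, Itgae and Cd209a together, 6 members held 2 or more UMIs. CPM are a gene's UMIs summed over the cells of a class in a library and scaled to counts per 1000000 UMIs.

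Markers of other cells stood in a good part of the members. In 50 members (19 in hCD33m, 15 in hCD33M and 16 in Control), P2ry12 and Tmem119 together reached the 0.15% that defines microglia, and these had a median of 13236 UMIs per cell and a median class II share of 0.738%. They held 386466 of the 540729 UMIs of hCD33m members, 188139 of 359095 in hCD33M and 271451 of 365407 in Control. CPM are sums of UMIs, so these cells weigh more in the member values than their number. In 8 further members (1 in hCD33m, 5 in hCD33M and 2 in Control), 8 monocyte markers such as Ly6c2, Plac8 and S100a4 summed to at least 49 UMIs, while no other member had more than 9. Of these 8, 3 (2 in hCD33M and 1 in Control) held no UMI of Mrc1, Pf4 or Ms4a7 and met the BAM sum by F13a1 alone. The other 52 members (20 in hCD33m, 19 in hCD33M and 13 in Control) carried neither set, had a median of 5887 UMIs per cell, near the 5192 of microglia, and a median class II share of 3.38%. These are called unmarked members below, and the split was chosen after the values were seen. The part of 2 cells sharing a barcode in the marked members was not tested, and values over the unmarked members are given below beside several results. The plot of class II share against microglial markers shows the 3 sets.

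**Figure D2:**
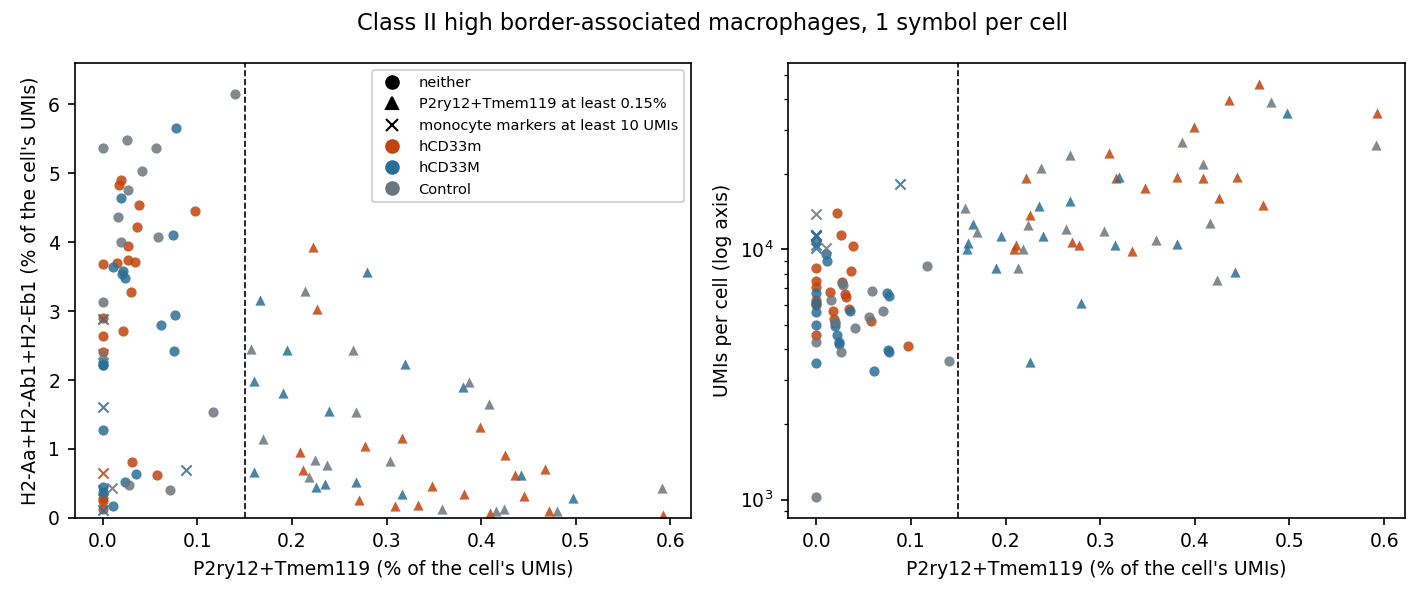
Left, the share of UMIs from H2-Aa, H2-Ab1 and H2-Eb1 (y axis, %) against the share from P2ry12 and Tmem119 (x axis, %) in each of the 110 class II high cells; right, UMIs per cell (log axis). Triangles lie right of the dashed line at 0.15% (50 cells), crosses are the 8 monocyte-marked cells and circles the 52 unmarked ones, which hold the highest class II shares and fewer UMIs per cell.

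Of the rest of the class II pathway, Cd74, H2-DMa, H2-DMb1 and Ciita stood at least 2-fold higher than in microglia, as did the genes of the rule. Cd74, the invariant chain that holds class II molecules until a peptide is loaded, had 10181 CPM in hCD33m, 11507 in hCD33M and 12583 in Control members, against 24.97 to 67.7 CPM in microglia and 103 to 335 CPM in class II low BAMs. The log2 ratio of members over microglia, taken within each library, averaged 8.00 ± 0.63 (SD, n = 3 libraries). Every member held a Cd74 UMI. After each cell was thinned to 2000 UMIs, Cd74 was seen in 109 of 109 (100%) members, 569 of 12421 (4.58%) microglia and 31 of 184 (16.8%) class II low BAMs, against unthinned shares of 100% of 110 members at a median of 9963 UMIs, 9.76% of 13312 microglia at 5192 UMIs and 41.8% of 196 class II low BAMs at 9758 UMIs. H2-DMa, a chain of the DM molecule that loads the peptide, had 531 CPM in hCD33m, 646 in hCD33M and 520.0 in Control members, against 233 to 288 CPM in microglia, and its log2 ratio of 1.16 ± 0.03 was alike in the 3 libraries. H2-DMb1, the other DM chain, had 459 CPM in hCD33m, 557 in hCD33M and 577 in Control members, against 162 to 178 CPM in microglia, a log2 ratio of 1.63 ± 0.11.

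Ciita, the transactivator that class II transcription depends on, was also higher in members than in microglia, at far lower counts. It had 75.8 CPM in hCD33m, 91.9 in hCD33M and 68.4 in Control members (41, 33 and 25 UMIs), while microglia held 2, 12 and 5 UMIs in all in the same libraries, which is 0.0668, 0.450 and 0.256 CPM. The log2 ratio over microglia was 8.63 ± 1.33 and rests on these few microglial UMIs. Ciita was seen in 51 of 110 members, and after thinning in 21 of 109 (19.3%) members and 7 of 12421 (0.0564%) microglia. A gene is called past the fold below where it was at least 2-fold apart in the same direction in each of the 3 libraries, among genes with a mean of at least 20 CPM. Of 6544 measured genes, 156 were past the fold higher in members than in microglia (2.38%) and 22 lower (0.336%), with a median log2 ratio over all measured genes of -0.22. Over 2 libraries alone the count of 178 became 274 without Control, 183 without hCD33M and 290 without hCD33m. Of the class II molecules outside the rule, 3 of 5 measured were past the fold (median 1.16), and of the class II regulators Ciita alone of 9 (median -0.23). Rfx5, Rfxap, Rfxank, Nfya, Nfyb, Nfyc, Irf1 and Irf8, factors known to act on class II promoters or on Ciita, were not past the fold, and neither were H2-Oa and H2-Ob, which restrain DM and stood at log2 ratios of -0.87 ± 0.50 and -0.60 ± 0.15. H2-DMb2, a second DM beta chain, stood at 0.83 ± 0.65 over 12 cells with a UMI.

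Genes that act around class II did not stand with it. Of 7 measured genes of peptide processing none was past the fold (median -0.78), against 2.38% of all genes higher and 0.336% lower. Among them Ctss, the protease that trims the invariant chain, stood at -0.41 ± 0.08 log2 over microglia. Ctsl, another lysosomal protease, had 775 CPM in hCD33m, 454 in hCD33M and 742 in Control members and 1312 to 1472 CPM in microglia, and over the unmarked members its log2 ratio was -2.65 ± 0.34, past the fold, with Ctsd, Lgmn and Cst3 also past it. Of all genes measured over the unmarked members, 6.98% were past the fold lower, and the median log2 ratio was -0.44. These members were picked for low P2ry12 and Tmem119 and the microglia for high levels of both. Of 6 measured genes of costimulation and T cell contact none was past the fold either (median -0.51). Over the unmarked members Icam1, an adhesion ligand, and Vsir, a checkpoint receptor, were past it lower, at -2.23 ± 0.79 and -1.89 ± 0.40 log2 (2 of 6, median -1.40, against 6.98% of all genes lower). Cd86, a ligand of CD28 on T cells, had 233 CPM in hCD33m, 106 in hCD33M and 161 in Control members, against 253 to 288 CPM in microglia, a log2 ratio of -0.76 ± 0.48. Cd83, Icam1, Vsir, Lgals9 and Havcr2 stood between -0.86 and 0.25 log2 over microglia. Cd40 gave 6, 5 and 2 UMIs and Cd274 4, 0 and 3 UMIs in hCD33m, hCD33M and Control members, too few to measure. Of the MHC class I genes, which present peptides to CD8+ T cells, H2-D1 and H2-Q7 were past the fold (2 of 12, median 0.58), where H2-Q7 shares sequence with other Q region genes and is uncertain. Over the unmarked members H2-K1 and H2-Q4 were past it too (4 of 12, median 0.82), H2-K1 at 1.24 ± 0.11 log2. H2-D1 had 1651 CPM in hCD33m, 1849 in hCD33M and 1464 in Control members and 571 to 682 CPM in microglia.

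BAM genes outside the rule stood far above microglia. Of 29 measured genes of the BAM identity list, 17 were past the fold higher and none lower, with a median of 2.98. Over the unmarked members 20 of 34 were higher (median 3.73) and Slc40a1, the iron exporter ferroportin, was lower, at -2.32 ± 0.75 log2. Cd163, the haemoglobin scavenger receptor, had 74.0 CPM in hCD33m, 58.5 in hCD33M and 76.6 in Control members, against 0.1499 to 0.401 CPM in microglia (log2 8.03 ± 0.54). Cbr2, a carbonyl reductase of tissue macrophages, had 161 CPM in hCD33m, 100.3 in hCD33M and 57.5 in Control members and 0.563 to 0.869 CPM in microglia. Both were seen in few members, 28 and 32 of 110. Clec12a, an inhibitory lectin receptor, was the more widespread one, with 233 CPM in hCD33m, 259 in hCD33M and 186 in Control members and 0.334 to 0.675 CPM in microglia, seen in 85 of 110 members and after thinning in 46 of 109 (42.2%) members and 8 of 12421 (0.0644%) microglia. Of 12 measured scavenger and lectin receptors 7 were past the fold (median 4.94), among them Mgl2 and Clec10a, lectins that bind galactose-type sugars, and Folr2, a folate receptor. Lyz2, the lysozyme of myeloid cells, had 7616 CPM in hCD33m, 12841 in hCD33M and 9567 in Control members, against 340.3 to 405 CPM in microglia (log2 4.73 ± 0.31), and was seen in all 110 members.

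Several of the genes highest over microglia rested on few UMIs or few cells. Cd93, a C-type lectin-like receptor, had 41, 49 and 42 UMIs in hCD33m, hCD33M and Control members, against 3, 3 and 1 in all microglia of these libraries, and was seen in 52 members. Ifi203, an interferon-inducible gene of a family with near copies, was seen in 73 members. Klra2, a Ly49 receptor gene whose family also has near copies, was seen in 39, Slfn1 in 16, Plbd1, a phospholipase B-like gene, in 59 and Ahnak, a giant scaffold protein, in 34. Ly6c2 was seen in 7 members and Fn1, fibronectin, in 8, and 98.8% of the Ly6c2 UMIs of hCD33m members came from 1 cell. Ccl8, a chemokine of macrophages, was seen in 14 members, with 80.4% of its hCD33m UMIs from 1 cell.

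Genes that the literature ties to class II high BAMs were mostly past the fold over microglia, 7 of 9 measured (median 4.27). Over the unmarked members 6 of 10 were higher (median 3.64), without Ccl8, and Cd9, a tetraspanin, and Cd300a, an inhibitory receptor, were lower, at -2.71 ± 0.39 and -1.55 ± 0.41 log2. Ccr2, the chemokine receptor that brings monocytes into tissue, had 442 CPM in hCD33m, 685 in hCD33M and 427 in Control members, against 6.81 to 9.22 CPM in microglia (log2 5.96 ± 0.26). It was seen in 56 of 110 members (50.9%) and 3.48% of microglia, and after thinning in 41 of 109 (37.6%) members (interval 28.5 to 47.4%), 183 of 12421 (1.47%) microglia and 13 of 184 (7.07%) class II low BAMs. Axl, a receptor tyrosine kinase for dying cells, had 152 CPM in hCD33m, 148 in hCD33M and 148 in Control members and 5.38 to 10.7 CPM in microglia. Fxyd5, a subunit of the sodium pump, had 290.3 CPM in hCD33m, 526 in hCD33M and 260.0 in Control members and 8.60 to 13.0014 CPM in microglia. Cd52, a surface glycoprotein of leukocytes, and Cxcl16, a scavenger receptor and chemokine, were also past the fold, at log2 ratios of 1.88 ± 0.19 and 1.60 ± 0.40. All 6 measured monocyte markers were past the fold (median 7.30), but in the unmarked members only Ccr2 and S100a6 of the list were still measured, both past it. The 14 monocyte markers summed to 884, 2336 and 1122 CPM in hCD33m, hCD33M and Control members, against 13.8 to 18.9 CPM in microglia and 244, 2119 and 941 CPM in class II low BAMs.

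Interferon-response genes stood above microglia as a group, with 7 of 12 measured past the fold, none lower, and a median of 1.85. Over the unmarked members 5 of 13 were, without Irf7 and Usp18 (median 2.22). Irf7, a transcription factor of the interferon response, had 38.8 CPM in hCD33m, 52.9 in hCD33M and 46.5 in Control members and 3.64 to 4.75 CPM in microglia. Bst2, which tethers budding virus to the cell, was seen in 108 of 110 members, with 566 CPM in hCD33m, 590.4 in hCD33M and 698 in Control members and 157 to 178 CPM in microglia. Of 10 measured genes of lipid handling 4 were past the fold (median 0.62). Apoe, the lipid carrier, was the most abundant of them, with 24759 CPM in hCD33m, 24885 in hCD33M and 19318 in Control members, against 424 to 729 CPM in microglia (log2 5.43 ± 0.41), and Pltp, a phospholipid transfer protein, stood at 7.07 ± 0.67. The part of transcripts free in the droplets in the microglial levels of Apoe, Lyz2 and Cd74 was not tested. Of 9 measured genes of iron and haem 3 were past the fold (median 1.13), Cd163, Blvrb, a biliverdin reductase, and Cp, the ferroxidase ceruloplasmin, which the ferritin chains Fth1 and Ftl1 joined over the unmarked members (5 of 9, median 1.64). Itga4, an integrin chain that binds VCAM1, Vcam1 itself and Emb, embigin, were the 3 of 13 adhesion genes past the fold (median -0.24), and over the unmarked members Itga4 and Nrp1 were higher and Itgam, Itgb5, Icam1 and Cd9 lower, of 12. No gene of the lists for Fc gamma receptors (0 of 6), Toll-like receptors (0 of 12), transcription factors (0 of 22) or the cell cycle (0 of 3) was past it. Of all measured genes 2.38% were past it higher and 0.336% lower, so these counts of 0 say little about the lists. Over the unmarked members Tlr3, Cd180 and Tmem173 of the Toll-like list were lower (3 of 12), and of 23 transcription factors Runx3 was higher and Sall1, Sall3 and Id2 lower. Of all genes there, 4.02% were higher and 6.98% lower.

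Microglial genes were lower, and by how much depended on the marked cells. All 24 genes of the microglia identity list had a log2 ratio below 0 (median -0.99), yet only Crybb1 was past the fold. Over the 52 unmarked members, 20 of the 24 were past it (median -2.29). The unmarked members were picked for low P2ry12 and Tmem119 and the microglia for high levels of both. Lower microglial genes there follow from this choice of cells and are no check of it. Sall1, a transcription factor that keeps microglial identity, had 237 CPM in hCD33m, 145 in hCD33M and 238 in Control members, against 416 to 461 CPM in microglia, and in the unmarked members 6.99, 9.14 and 42.9 CPM in hCD33m, hCD33M and Control. The 24 genes summed to 55834, 41204 and 60565 CPM in hCD33m, hCD33M and Control members, between 93375 and 102674 CPM in microglia and between 50066 and 70917 CPM in class II low BAMs. Of the genes past the fold lower, Gm26735, a predicted gene, had the lowest ratio (-2.17 ± 0.32), and the others included Phgdh, the first enzyme of serine synthesis (-1.58 ± 0.64), and Slc1a3, a glutamate transporter (-1.42 ± 0.16). Over the unmarked members 6275 genes were measured, of which 252 were higher (4.02%) and 438 lower (6.98%), and 129 of the higher and 11 of the lower genes were among those past the fold over all members. Scaling by TMM factors moved the median of all genes over microglia to -0.10, and 188 genes were then higher and 13 lower. The plot of ratios over microglia shows both sets of cells.

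**Figure D3:**
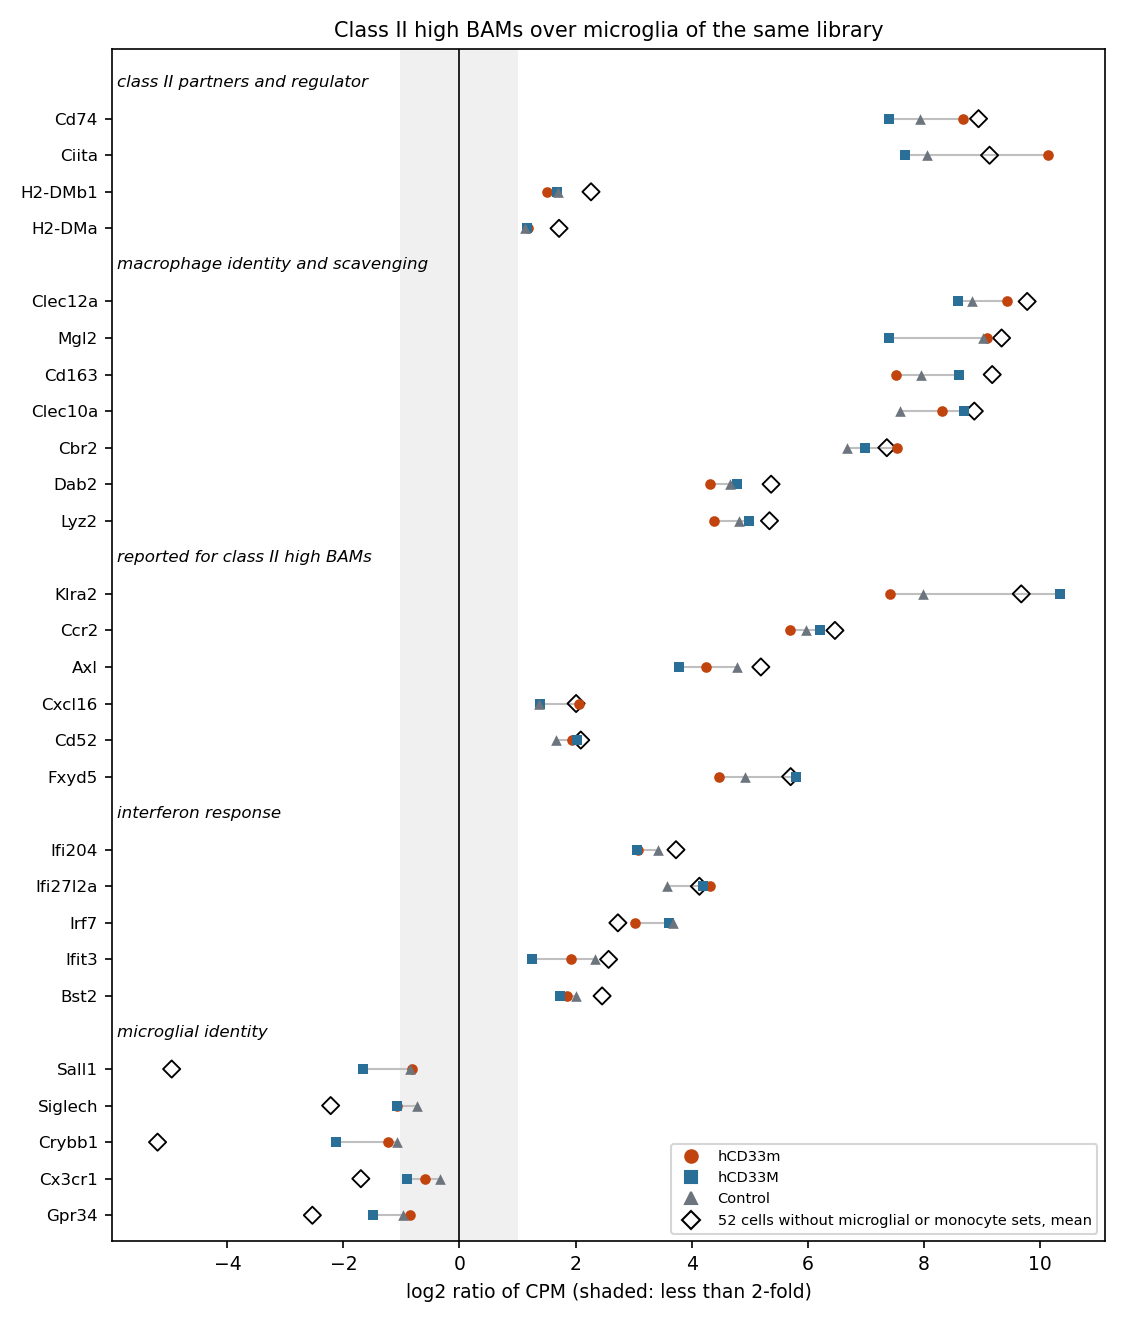
Log2 ratio of CPM in class II high BAMs over microglia (x axis) for named genes (y axis), 1 point per library (n = 3), with a grey line over their range and an open diamond for the mean over the 52 unmarked members. The shaded band marks less than 2-fold. Cd74 averages 8.00 and Ccr2 5.96, and the microglial identity genes plotted lie below 0, further so in unmarked members, which were picked for low P2ry12 and Tmem119.

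Against the class II low BAMs, which were picked by the same 4 BAM genes, the members differed in few genes. Of 6492 measured genes 17 were past the fold higher (0.262%) and 20 lower (0.308%), with a median log2 ratio of -0.12, and over 2 libraries alone the count of 37 became 68 without Control, 76 without hCD33M and 94 without hCD33m. Mrc1 of the rule, as a description, had 749, 710 and 695 CPM in hCD33m, hCD33M and Control members, against 1506, 1825 and 1324 CPM in class II low BAMs. Pf4 had 875, 693 and 690 CPM in the members of these libraries, against 1621, 1520 and 1468 CPM in class II low BAMs. Ms4a7, a membrane protein of macrophages, overlapped, with 525, 462 and 378 CPM in members and 502, 604 and 415 CPM in class II low BAMs. The 4 genes were a median of 26, 13 and 15 UMIs per cell in members, against 45, 50 and 43.5 UMIs in class II low BAMs.

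Cd74 led the genes higher in members, at 6.07 ± 0.92 log2, followed by Slamf7, a receptor of activated leukocytes, which had 42.5 CPM in hCD33m, 41.8 in hCD33M and 54.7 in Control members but 1, 1 and 2 UMIs in class II low BAMs. Ciita had 0, 7 and 2 UMIs in class II low BAMs of hCD33m, hCD33M and Control, and H2-DMb1 and H2-DMa stood at 2.04 ± 0.11 and 1.39 ± 0.01 log2. Runx3, a Runt transcription factor, had 46.2 CPM in hCD33m, 41.8 in hCD33M and 24.6 in Control members and 2.82 to 7.78 CPM in class II low BAMs, the 1 gene of 24 measured transcription factors past the fold. Axl had 148 to 152 CPM in members, against 69.4, 46.7 and 19.8 CPM in class II low BAMs of hCD33m, hCD33M and Control, without overlap. Cd72, a C-type lectin coreceptor, had 122 CPM in hCD33m, 64.0 in hCD33M and 65.7 in Control members, against 44.3, 12.5 and 4.23 CPM in class II low BAMs. Clec4b1, Scimp, an adaptor that sits with class II molecules in the membrane, Ms4a4c, Olfm1 and H2-Q7 were the others of the 12 highest, between 1.91 and 2.90 log2, with Olfm1 seen in 20 cells. Ccr2 had 427 to 685 CPM in members and 38.6, 386 and 213 CPM in class II low BAMs of hCD33m, hCD33M and Control, and was not past the fold (1.78 ± 1.51 log2). Without the marked cells of both classes it was, at 4.33 ± 0.73 log2, and 13 class II low BAMs carried the monocyte markers.

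Several genes lower in members encode lectin and scavenger receptors. Lyve1, a hyaluronan receptor known to mark class II low BAMs, had 31.4 CPM in hCD33m, 25.1 in hCD33M and 5.47 in Control members, against 268, 196 and 84.7 CPM in class II low BAMs of these libraries (log2 -3.34 ± 0.54). It was seen in 7 of 110 members (6.36%) and 101 of 196 class II low BAMs (51.5%), against 0.0676% of microglia, and after thinning in 5 of 109 (4.59%) members, 47 of 184 (25.5%) class II low BAMs and 3 of 12421 (0.0242%) microglia. Cd209f, a lectin of the DC-SIGN family whose members are near copies, had 57.3 CPM in hCD33m, 39.0 in hCD33M and 19.2 in Control members and 235 to 433 CPM in class II low BAMs, and only 6 members held a UMI. Of the 41 measured BAM identity genes 10 were past the fold lower (median -0.85), with Cd72 alone higher, and of 18 scavenger and lectin receptors 5 were lower (median -0.87). Ednrb, an endothelin receptor, had 1, 0 and 1 UMIs in hCD33m, hCD33M and Control members, against 75, 54 and 31 UMIs in class II low BAMs. Egfl7, a secreted protein of vessels, Fcna, a ficolin, and Colec12, a scavenger collectin, had 0 to 6 UMIs per library in members, and Pomk, Pla2g2d, Ccl24, C2 and Hp were the rest of the 12 lowest. Cd163 and Cbr2 stood at -1.52 ± 0.50 and -1.31 ± 0.55 log2, not past the fold, but at -1.77 ± 0.18 and -2.33 ± 1.80 without the marked cells, past it. Without them, 39 of 5858 genes were higher (0.666%) and 82 lower (1.40%), 18 of 43 BAM identity genes were lower (median -1.53), Cd72 was no longer past the fold (1.81 ± 1.78 log2), and 9 higher and 10 lower genes were shared with the comparison of all cells. The plot of ratios over class II low BAMs gives both.

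**Figure D4:**
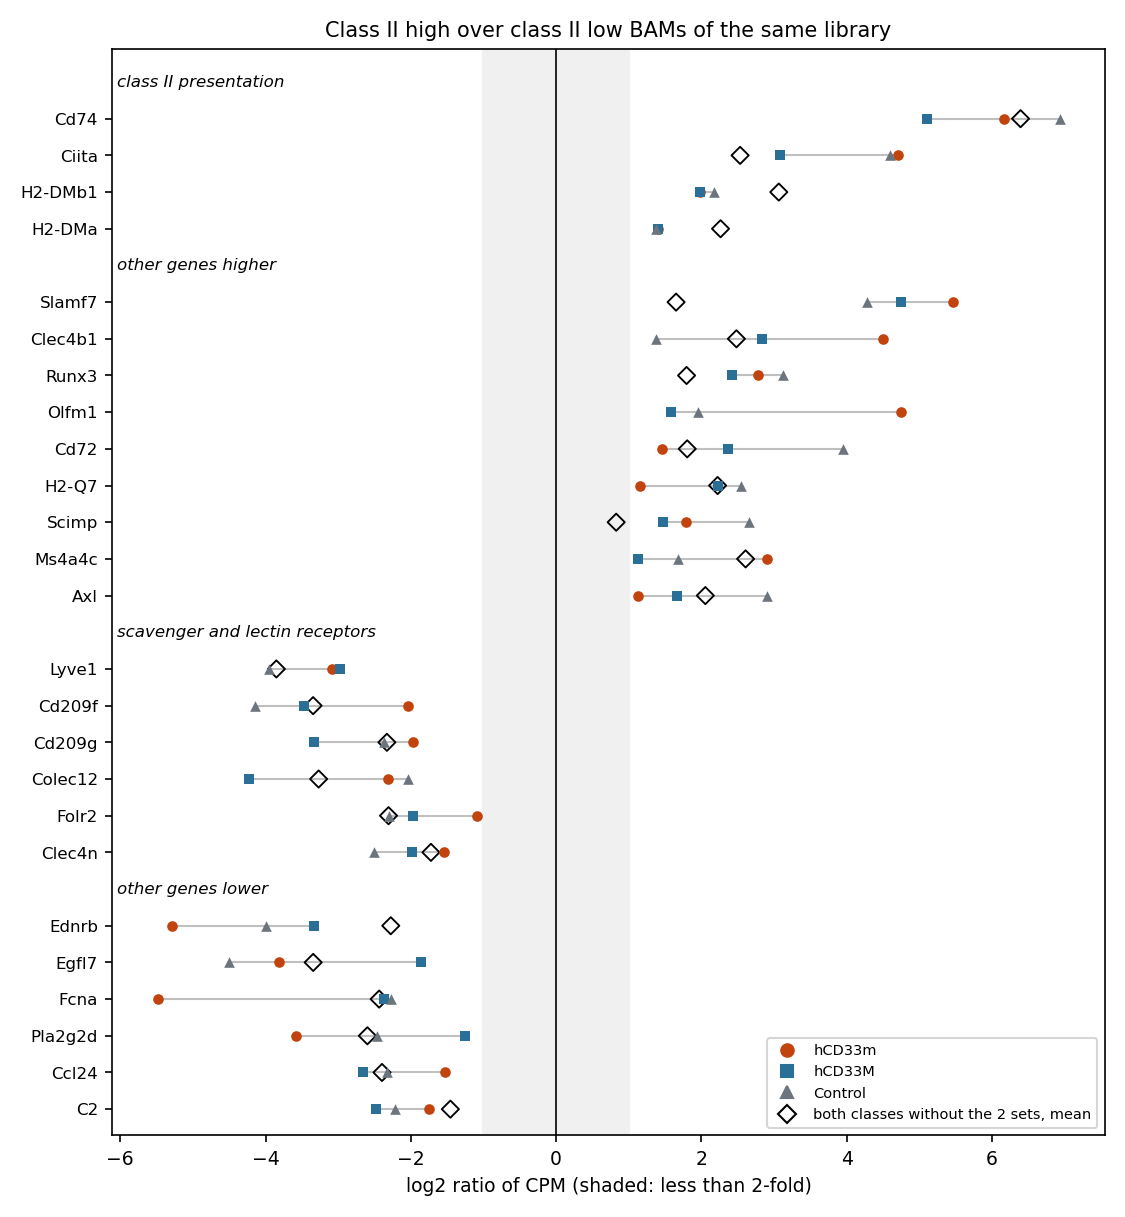
Log2 ratio of CPM in class II high BAMs over class II low BAMs (x axis) for named genes (y axis), 1 point per library (n = 3), with a grey line over their range and an open diamond for the mean without the marked cells of both classes. The shaded band marks less than 2-fold. Cd74, Slamf7 and Ciita lie at the high end, at 6.07, 4.83 and 4.13, and Lyve1 at -3.34.

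Among the members, the class II genes moved together from cell to cell. The Spearman correlation over the 110 members was 0.96 for each pair of H2-Aa, H2-Ab1 and H2-Eb1, taken as shares of each cell's UMIs, and 0.90 to 0.91 over the 52 unmarked members. These values share the library, the depth and the choice of cells, and are given as a description. Of 4290 genes compared with the summed class II share, the most alike were Cd74 (rho 0.94), H2-DMa (0.72), H2-DMb1 (0.70), Tmem176b (0.51), Tmem176a (0.50), Fth1 (0.43), Rpl37a (0.43), Clec12a (0.42), Apobec1 (0.42) and Rpl36 (0.42). In the unmarked members Cd74 (0.85), both DM genes (0.73 and 0.74) and Tmem176b (0.50), one of a pair of channel-like proteins, kept such values, while Fth1, the ferritin heavy chain, was at 0.05. Ciita was at 0.29 over all members and 0.45 over the unmarked ones. The genes with the lowest values were Lrp1, an endocytic receptor (-0.56), Fcrls, a microglial Fc receptor-like gene (-0.54), and Ltc4s, leukotriene C4 synthase (-0.50).

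The unmarked members fell on both sides of a sparse range of class II share. The share was under 1% in 12 of them (5 in hCD33m, 5 in hCD33M and 2 in Control), 1 to 2% in 2 and 2% or more in 38 (15 in hCD33m, 13 in hCD33M and 10 in Control). These limits were set after the values were seen, and the cells on both sides had like depth, with a median of 5739 UMIs at 2% or more and 6197 under 1%. As a description, Cbr2 was seen in 5 of 38 at 2% or more against 9 of 12 under 1%, Cd163 in 7 of 38 against 7 of 12, Folr2 in 4 of 38 against 6 of 12, and Lyve1 in 0 of 38 against 2 of 12. F13a1 of the rule was seen in 20 of the 38 and 11 of the 12. Ccr2 ran the other way, in 23 of 38 against 2 of 12, as did Cd72 (19 of 38 against 2 of 12), Klra2 (18 of 38 against 1 of 12) and Ciita (20 of 38 against 2 of 12). Clec12a was common on both sides, in 32 of 38 and 9 of 12. Over all 110 members, the 56 cells with a Ccr2 UMI had a median class II share of 2.40%, against 0.707% in the 54 without, while the 32 with a Cbr2 UMI had 0.508%, against 2.39% in the 78 without.

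Between the genotypes, Cd74 and the class II genes of the rule were less than 2-fold apart in the members. Cd74 gave log2 ratios of -0.31 (-0.36 to -0.25) for hCD33m over Control, -0.13 (-0.19 to -0.07) for hCD33M over Control and -0.18 (-0.24 to -0.12) for hCD33m over hCD33M, with exact 95% counting intervals in parentheses. H2-Aa of the rule gave -0.27 (-0.36 to -0.19), -0.05 (-0.14 to 0.05) and -0.23 (-0.32 to -0.14) for the same pairs. Ciita, with 25 to 41 UMIs per library, gave 0.15 (-0.60 to 0.93), 0.43 (-0.37 to 1.24) and -0.28 (-0.97 to 0.43), and each interval includes 0. In the unmarked members the order of the transgenic libraries turned round, to 0.25 (0.17 to 0.34) for Cd74 and 0.40 (0.28 to 0.53) for H2-Aa for hCD33m over hCD33M, and H2-Ab1 and H2-Eb1 turned with them. For hCD33M over Control, Cd74 was then at -0.57 (-0.66 to -0.48) and H2-Aa at -0.74 (-0.89 to -0.60). Each genotype had 1 library, so these intervals cover counting and leave out the spread between mice and between cells.

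Genes at least 2-fold apart with a counting interval that left out 0 and at least 100 CPM in the higher library were few. They were, for hCD33m over Control, 21 higher (1.17%) and 11 lower (0.612%) of 1797 measured genes, for hCD33M over Control 38 higher (2.14%) and 25 lower (1.41%) of 1774, and for hCD33m over hCD33M 38 higher (2.13%) and 16 lower (0.895%) of 1788. The balance for hCD33m over Control turned to 80 higher and 103 lower in the unmarked members, where 11 of the 32, 14 of the 63 and 9 of the 54 genes of the 3 pairs were still called. For hCD33M over Control it also turned with cells thinned to 2000 UMIs, to 37 higher and 53 lower. Klf2, a Krüppel-like factor that quiets macrophages, was higher in both transgenic libraries, with 165, 85 and 23 UMIs, or 305 CPM in hCD33m, 237 in hCD33M and 62.9 in Control members. Its log2 ratio was 2.28 (1.64 to 2.97) for hCD33m over Control and 1.91 (1.23 to 2.64) for hCD33M over Control, against 1.11 (0.98 to 1.24) and 0.12 (-0.03 to 0.27) in microglia. It was seen in 26 of 40 members in hCD33m, 19 of 39 in hCD33M and 11 of 31 in Control, and no cell held over 25.9% of a library's UMIs. In the unmarked members it was 3.41 (1.80 to 5.72) and 3.41 (1.78 to 5.74). Both values rest on the same 3 Control UMIs, against 65 in hCD33m and 50 in hCD33M. Cx3cr1, the fractalkine receptor whose regulatory sequence drives the Cre of both transgenic lines, had 2105 CPM in hCD33m, 1805 in hCD33M and 4554 in Control members, and was lower in microglia too, at -0.85 (-0.86 to -0.84) for hCD33m over Control and -0.76 (-0.77 to -0.75) for hCD33M over Control.

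Several other leading genes came from 1 or a few cells. Ccl4, a chemokine, gave -3.70 (-4.81 to -2.76) for hCD33m over Control and -4.11 (-5.77 to -2.84) for hCD33M over Control, but 90.9% of its Control UMIs came from 1 cell, as did 85.7% of those of Ccl3. Ly6c2 was seen in 2 hCD33m, 4 hCD33M and 1 Control member. Prl, prolactin, had 70 UMIs in 4 hCD33m members, 82.9% of them from 1 cell, and 0 in the members of the other libraries. Vim, the filament vimentin, and Crip1, a LIM domain protein, were more widespread, in 17 and 23 of 39 hCD33M members. For hCD33M over Control, Vim gave 2.42 (1.78 to 3.11), and 4.21 (1.62 to 9.57) in the unmarked members on 29 against 1 UMIs, and Crip1 gave 1.72 (1.37 to 2.07), and 1.60 (0.90 to 2.38) in the unmarked members. S100a4 gave 1.76 (1.26 to 2.28) in 9 hCD33M and 4 Control members with a UMI, and in the unmarked members had 8 UMIs in hCD33M and 1 in Control. S100a4 gave -2.83 (-3.44 to -2.26) for hCD33m over hCD33M, and Plac8, a monocyte marker seen in 1 hCD33m and 5 hCD33M members, -1.74 (-2.18 to -1.31). The hCD33M library held 5 monocyte-marked members, against 1 in hCD33m and 2 in Control, and with these left out 25 of the 32 genes for hCD33m over Control, 39 of the 63 for hCD33M over Control and 22 of the 54 for hCD33m over hCD33M were still called. Of the microglia identity list, 19 of 24 genes had intervals below 0 for hCD33M over Control (median -0.56, against 6.12% of all 6895 genes), and 21 of 24 above 0 for hCD33m over hCD33M (median 0.58, against 7.11% of 7023). The first pair had, in the unmarked members, 5 of 22 below 0 (median -0.34, against 1.93%), and the second turned to a median of -0.29, with 2 of 22 above 0 (against 2.02%) and 3 below (against 2.26%).

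The 9 early response genes that the study named, which are switched on within minutes of a stimulus, were set beside microglia of the same libraries. The study chose them on another experiment and looked at them again here, so their direction is not independent. Their median log2 ratio for hCD33m over Control was 0.68 in members, with 7 of 9 intervals above 0, against 4.60% of all 7102 genes at the same CPM limit of 20. In microglia it was 0.61, with 9 of 9 above 0, against 22.5% of genes. The median for hCD33M over Control was 0.03 in members, with 3 intervals above 0 (4.89% of all genes) and 1 below, and -0.04 in microglia, with 1 above (19.8%) and 5 below (11.6%). Fos, a subunit of AP-1, gave 1.32 (0.73 to 1.96) for hCD33m over Control and 1.10 (0.45 to 1.77) for hCD33M over Control in members. Jun, its partner, gave 0.61 (0.40 to 0.83) and 0.03 (-0.23 to 0.29), and Fosb 1.43 (0.60 to 2.36) and 0.98 (0.03 to 1.98). Egr1, a zinc finger factor, gave 0.56 (0.06 to 1.08) and 0.03 (-0.58 to 0.63), while Btg1 and Btg2, which hold back proliferation, had intervals that include 0 in both pairs. Rhob, a small GTPase, gave 0.68 (0.44 to 0.92) and -0.65 (-0.98 to -0.33), and Zfp36l1, which destabilises mRNAs, 0.76 (0.50 to 1.02) and -0.17 (-0.49 to 0.15). In the 20 hCD33m and 13 Control unmarked members the median was 0.34, with 1 interval above 0 (2.13% of genes) and 1 below (2.85%), Egr1 was at -1.86 (-3.22 to -0.60) and Jun at -0.03 (-0.51 to 0.46). Fos, for hCD33M over Control, was at -0.27 (-1.57 to 1.08) in the unmarked members. The plot of early response ratios sets the members beside microglia.

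**Figure D5:**
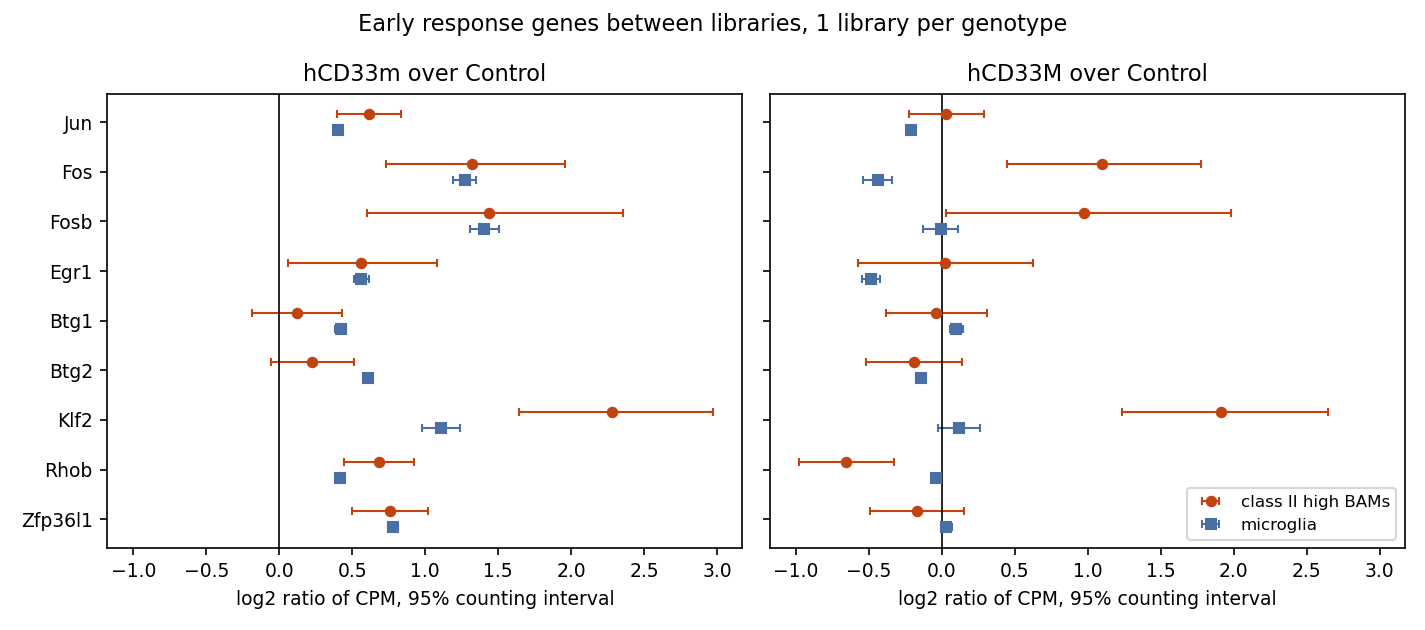
Log2 ratio of CPM for the 9 early response genes (y axis), for hCD33m over Control and for hCD33M over Control, in class II high BAMs (circles) and in microglia (squares), with bars for exact 95% counting intervals. All 9 values for hCD33m over Control lie above 0 in both classes, and for hCD33M over Control the intervals of Klf2, Fos and Fosb lie above 0 in class II high BAMs, where Fos is at -0.27 in unmarked members.

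Most glucocorticoid-responsive genes had intervals above 0 in pairs with hCD33m over all members, and few did in the unmarked ones. Their median was 1.43 for hCD33m over Control, with 5 of 8 intervals above 0, against 4.60% of all genes. It was 0.11 for hCD33M over Control and 1.78 for hCD33m over hCD33M, with 5 of 7 above 0 in the latter, against 7.11%. The unmarked members gave 0.55 for hCD33m over Control, with 1 of 6 above 0 (against 2.13% of genes), that of Tsc22d3 at 1.38 (0.11 to 2.93). For hCD33m over hCD33M they gave 0.61, with 2 of 7 above 0 (against 2.02%). Microglia gave medians of 1.09, 0.08 and 1.40 for the 3 pairs. Tsc22d3, a leucine zipper protein induced by glucocorticoids, had 163 CPM in hCD33m, 47.3 in hCD33M and 43.8 in Control members, and gave 1.89 (1.12 to 2.76) for hCD33m over Control in members and 1.90 (1.78 to 2.02) in microglia. The hCD33m library is the female one, so sex and transgene cannot be told apart here. Cd86 gave 0.53 (0.07 to 1.001) for hCD33m over Control, -0.61 (-1.24 to 0.00) for hCD33M over Control and 1.14 (0.61 to 1.70) for hCD33m over hCD33M.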

How the data were processed

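Single-cell 3' RNA-seq libraries of sorted brain myeloid cells were available for 3 genotypes, 1 library each. The authors deposited UMI counts per gene and barcode, made per the labels with Cell Ranger on mm10 and imported with Seurat (genes in at least 3 cells, cells with over 200 genes). Libraries held 21529542 to 32572995 UMIs in 3482 to 5707 barcodes, and the filter on genes and mitochondrial UMIs left out 219 of 14289. Members, lists and comparisons were chosen with earlier results of these data known. No doublet caller was run.

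Counts were summed per library and class with Python 3.11.15, pandas 2.3.3 and numpy 2.4.6, and scaled to CPM. A sum of 0 took a floor of 3 UMIs when its partner was above 0. Clopper-Pearson and exact conditional binomial 95% intervals came from scipy 1.17.1, TMM factors from edgeR 4.0.16 (R 4.3.3) and figures from matplotlib 3.10.9. Mean log2 ratios and SD were taken over 3 libraries. The scripts were tested on simulated data. Promoter sequences were RefSeq's (GRCm38.p6).

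Named genes were the 12 highest and 12 lowest past the fold for each cell class, the 8 highest and 8 lowest for each genotype pair without sex-linked markers, all class II, costimulation and early response genes, up to 4 of each other list and the 10 most alike genes across members. Genes named only for their values in unmarked members were chosen after those values were seen. Alternatives changed the cell filter, the member rule, the doublet and dendritic cell exclusions, the scaling, the weight of cells, the depth, the CPM limit and the libraries used.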

Additional observations from a re-analysis of the deposited data

Results flagged for a closer look

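Among the named genes for hCD33M over Control, 5 had ratios of opposite sign in class II high BAMs and in microglia of the same libraries, with both counting intervals leaving out 0. Apart from the early response genes, the named genes were chosen for member ratios with intervals leaving out 0, so that part was set beforehand. In microglia, the intervals of 19.8% of all 6885 genes lay above 0 for this pair, and those of 11.6% below. The difference itself was not tested, since each genotype had 1 library. Ccl12, a monocyte-attracting chemokine, was at -1.58 in class II high BAMs and 0.15 in microglia, a difference of -1.73 (log2). Cdk6, a cell cycle kinase, was at -1.40 in class II high BAMs and 0.21 in microglia, a difference of -1.61. Dgkd, a diacylglycerol kinase, was at -1.75 in class II high BAMs and 0.10 in microglia, a difference of -1.85. Crip1 was at 1.72 in class II high BAMs and -0.27 in microglia, a difference of 1.99, and Fos was at 1.10 in class II high BAMs and -0.44 in microglia, a difference of 1.53. In the unmarked members Cdk6 was at 0.68 (-1.93 to 4.07) and Fos at -0.27 (-1.57 to 1.08), each with the sign it had in microglia. Ccl12 was at -0.23 (-1.95 to 1.58) there, still opposite in sign to microglia. All 3 intervals include 0.

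Outside the class described, 52 kept barcodes had at least 10 class II UMIs but under 5 UMIs of the 4 BAM genes (10 in hCD33m, 23 in hCD33M and 19 in Control). Of these, 16 met the microglia definition, 14 carried the monocyte markers and 6 held 2 or more UMIs of Flt3, Zbtb46, Xcr1, Clec9a, Itgae and Cd209a. Their median class II sum was 115.5 UMIs for hCD33m, 145 for hCD33M and 49 for Control. The 16 were part of the microglia that members were set against, and the other 36 entered no comparison.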

How the results depend on the processing

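The share of class II high BAMs (0.782%) was 0.426% without microglia-marked cells, 0.547% with a BAM sum of at least 10 UMIs, 0.576% without the top 5% of cells by UMIs and 0.370% for unmarked cells, an exclusion chosen after seeing the data. Of 178 genes past the fold over microglia, the count became 117 with no cell filter, 877 without microglia-marked cells, 314 with the rule on shares of UMIs, 536 without the top 5% of cells, 421 with each cell weighted alike, 320 with cells thinned to 2000 UMIs, 382 and 89 at a mean CPM of 5 and 50, 497 with no filter on low values, 690 for unmarked cells (252 higher, 438 lower) and 183 to 290 without 1 library. Over class II low BAMs the count of 37 became 367 without microglia-marked cells, 80 without the top 5%, 81 with cells weighted alike, 70 thinned, 84 and 15 at a mean CPM of 5 and 50, 88 with no filter on low values, 121 for unmarked cells (39 higher, 82 lower) and 68 to 94 without 1 library.

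For hCD33m over Control, 32 genes became 17 with no cell filter, 154 without microglia-marked cells (71 higher, 83 lower), 66 with a BAM sum of at least 10, 130 without the top 5%, 93 thinned, 142 and 9 at 50 and 200 CPM and 183 for unmarked cells (80 higher, 103 lower). For hCD33M over Control, 63 (38 higher, 25 lower) became 124 with no cell filter (55 higher, 69 lower), 112 without microglia-marked cells, 41 with a class II sum of at least 20 (17 higher, 24 lower), 60 with a BAM sum of at least 10 (26 higher, 34 lower), 90 thinned (37 higher, 53 lower), 99 with totals without mitochondrial, ribosomal and Malat1 UMIs (57 higher, 42 lower), 207 (81 higher, 126 lower) and 22 at 50 and 200 CPM and 133 for unmarked cells. For hCD33m over hCD33M, 54 became 100 with no cell filter, 104 without microglia-marked cells (41 higher, 63 lower), 86 with those totals (50 higher, 36 lower), 119 thinned, 179 and 23 at 50 and 200 CPM and 122 for unmarked cells (59 higher, 63 lower), and TMM gave 39 higher and 26 lower. The early response median of 0.68 was 0.29 without the top 5% and 0.34 for unmarked cells. The cause of these moves was not tested, except that CPM limits and fewer libraries or cells change what is counted.

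No named gene that was past the fold changed sign over microglia (among 36 genes, 695 values) or over class II low BAMs (among 33 genes, 640 values). Changes of sign in named genes not past the fold were not counted. With hCD33m over Control, Ccl3 turned to 1.16 without microglia-marked cells, 1.11 by share, 1.18 with a BAM sum of at least 10, 1.79 without the top 5% and 0.84 unmarked. Ccl4 turned to 2.09 without microglia-marked cells, 1.48 without the top 5% and 1.78 unmarked. Egr1 turned to -1.55 without microglia-marked cells, -0.53 without the top 5%, -0.12 with cells weighted alike, -0.64 thinned and -1.86 unmarked, and Jun to -0.16 without the top 5% and -0.031 unmarked. Ly6c2 turned to -5.05 with a BAM sum of at least 10 and S100a6 to 0.87 without monocyte-marked cells, also chosen after seeing the data. For hCD33M over Control, Ccl3 turned to 1.06 by share, 0.78 with a BAM sum of at least 10 and 1.06 without the top 5%, and Ccl4 to 0.14 without microglia-marked cells and 0.36 unmarked. Ly6c2 turned to -0.18 by share, -0.11 with a BAM sum of at least 10, -0.39 without the top 5% and -0.21 thinned. Fos turned to -0.38 thinned and -0.27 unmarked, Cdk6 to 0.68 and Tgoln1 to 0.36 unmarked, and S100a4 to -0.13 and S100a6 to -0.33 with a BAM sum of at least 10. For hCD33m over hCD33M, Sgk1 turned to -0.59 and Slc7a7 to -0.66 without microglia-marked cells, and unmarked cells gave -0.39 for Sgk1, -1.39 for Slc7a7, -0.024 for Egr1 and 0.073 for Lgals3, while Plac8 turned to 0.22 without the top 5%. The cause of these turns was not tested.

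No paired analysis was possible because each genotype had 1 library. With 31 to 40 cells per library, a sum of 0 UMIs in members allows up to 5.55 to 8.35 CPM, and ratios of genes with few UMIs have wide intervals.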
